A study of Canis lupus familiaris with 23 samples.

Results

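Neuregulin 1 (NRG1) and cadherin 6 (CDH6) were the 2 genes examined, out of 6540 genes named on the array. They were chosen by their measured cell line and tumor values, because both canine osteosarcoma cell lines lay far above every primary tumor. Those values are given as a description without a test. All probe sets annotated to either gene were used, 1 for NRG1 (1586921_at) and 2 for CDH6 (1587153_at and 1598309_at), out of 23836 probe sets tested in the series.

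NRG1 is a growth factor of the epidermal growth factor family. It is made as a membrane-bound precursor, is shed by proteases, and binds ERBB3 and ERBB4, which pair with ERBB2 to signal through the RAS-ERK and PI3K-AKT routes. It is best known for its part in the growth of Schwann cells, breast epithelium and heart. CDH6, also called K-cadherin, is a classical cadherin of the type II group that joins neighbouring cells through calcium-dependent contacts and is anchored inside the cell by catenins. It is known from the developing and adult kidney tubule and from renal and ovarian carcinoma, and mesenchymal and epithelial cells differ in the cadherins they carry.

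The series held 15 primary osteosarcomas of pet dogs, taken at definitive surgery and before any chemotherapy. Beside these stood RNA of 2 canine osteosarcoma lines grown in culture, and of kidney, liver and lymph node (2 samples an organ) of dogs from a research colony. Osteosarcoma is a bone-forming sarcoma, and no normal bone was among the samples. The methods name the lines MC-KOSA and BW-KOSA, but the labels do not tie either name to a sample, so they are called cell line 1 and cell line 2 here. Breed and age were not given in the sample labels, and neither were clonal origin or passage of the lines. No treatment was applied to any group. Tumor RNA was taken from homogenized tissue with Trizol and cell line RNA from overnight cultures, so tissue or culture and the handling of the RNA cannot be told apart in any cell line versus tumor difference. All values are log2 expression values, on which 1 unit is a doubling, and in these bulk samples fewer cells of a type and less RNA per cell cannot be told apart.

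Group mean array medians ran from 4.75 in the cell lines to 4.87 in the liver. The quantile normalization of the deposited values brings such medians together, so they are no check of the arrays. Control probe sets split the arrays by 5′ signal. In 10 arrays the 3′ end of the actin and Gapdh transcripts exceeded the 5′ end by 3.15 log2 units or more, against 0.85 or less in the others. The low 5′ arrays were 7 tumors and replicate 1 of each organ, and both cell lines had full 5′ signal. The BioB hybridization control was at 9.62 and 10.4 in the cell lines and between 5.81 and 8.42 in the tumors, and its part in the cell line differences was not tested. The labelled tissues were checked against their markers. The summed level of 8 hepatocyte genes was 75.5 to 76.3 in liver and 40.3 to 47.9 in the cell lines and tumors. That of 7 kidney epithelium genes was 56.3 to 60.5 in kidney and 37.4 to 45.8 in the cell lines and tumors. For the cell lines, the summed level of 8 osteoblast and bone matrix genes was 56.5 to 61.6, below the 63.1 to 76.4 of the tumors. Among these genes COL1A1, a chain of type I collagen, had a mean of 12.8 in the cell lines and 13.2 in the tumors, and SPP1 (osteopontin) was at 4.32 against 11.1.

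NRG1 was near the low end of the scale in every tumor and well above it in both cell lines. Cell line 1 had a log2 value of 7.07 and cell line 2 a value of 6.84. The 15 tumors ran from 3.82 to 4.63 with a median of 4.10. No tumor came near either line, and the tumors differed from each other by no more than 0.81. The mean cell line minus tumor difference was 2.83, or 7.12-fold, and the lower line exceeded the highest tumor by 2.21, or 4.63-fold. All 3 NRG1 and CDH6 probe sets had a mean below the median of all probe set means, and RMA compresses differences of such dim probe sets, so the folds given here are those of the deposited values and may understate the difference in RNA.

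CDH6 gave the same order with its brighter probe set, 1587153_at. Its log2 value was 6.76 in cell line 1 and 7.07 in cell line 2. The tumors ran from 3.55 to 4.71 with a median of 3.89. Tumor 7 was the highest at 4.71, followed by tumor 2 at 4.34, and again no tumor overlapped with the lines. The difference of the means was 2.97, or 7.86-fold, and the lower line stood 2.04 above the highest tumor, or 4.13-fold. Tumor 7 was a low 5′ array, and against the 8 tumors with full 5′ signal this margin was 2.41.

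The other CDH6 probe set, 1598309_at, was dimmer in all groups. Its log2 value was 4.58 in cell line 1 and 5.44 in cell line 2, and the tumors ran from 3.16 to 3.50 with a median of 3.30. It kept the lines apart from the tumors, with a smaller difference of 1.70 (3.25-fold) and a margin of 1.08 (2.12-fold). The lines differed from each other by 0.85 here and by 0.31 for 1587153_at, and cell line 2 was the higher line in both probe sets. For NRG1 cell line 1 was the higher line, by 0.23.

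**Figure D1:**
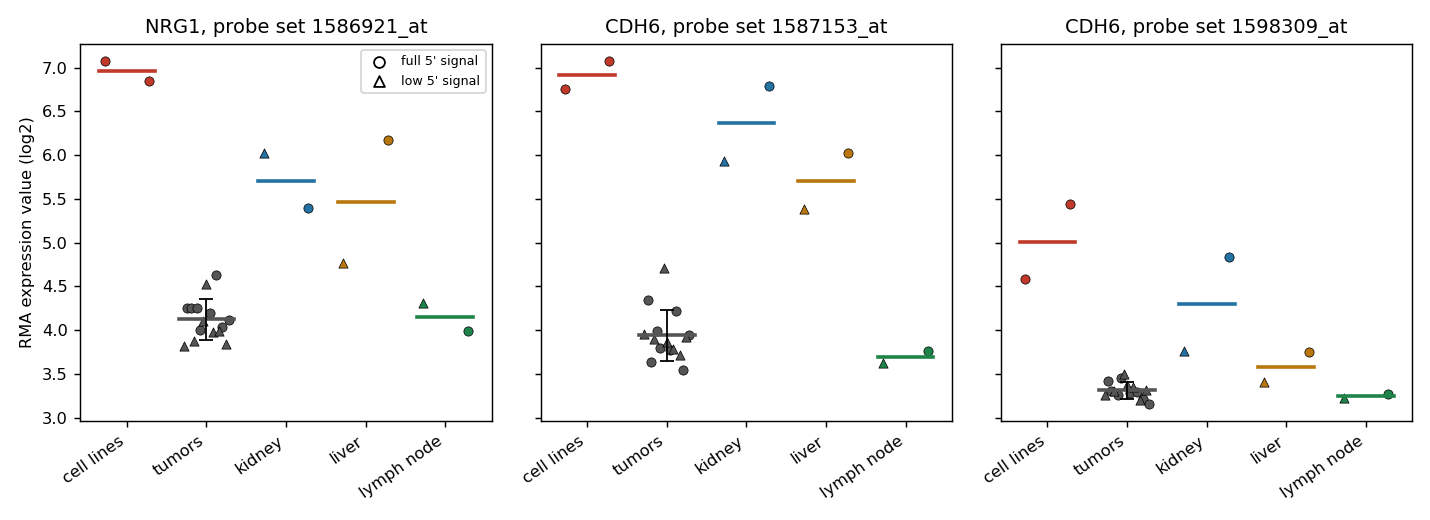
Log2 expression value of each NRG1 and CDH6 probe set in every sample, by group, with each point 1 sample. For all 3 probe sets the cell lines sit above the 15 tumors, by 2.21, 2.04 and 1.08 between the lower line and the highest tumor, while kidney 2 reaches above cell line 1 in both CDH6 probe sets and liver 1 lies within the tumor range for 1598309_at.

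The excess was at the far end of the array. Both cell lines lay above every tumor in 7.47% of all probe sets, by 1 log2 unit or more in 0.566% and by 2 units or more in 0.0252%, which is 6 probe sets. All 3 NRG1 and CDH6 probe sets met the margin of 1 unit, and NRG1 and CDH6 1587153_at met that of 2. The choice of the genes rested on this contrast, so nothing is read from these counts. With each gene represented by its brightest probe set, NRG1 ranked first and CDH6 second of 6540 genes by the margin of the lower line over the highest tumor. The genes ranked next were PTGR1, a prostaglandin and leukotriene reductase, at 1.90, the RNA helicase DDX27 at 1.83, and GSR, glutathione reductase, at 1.79. Their margins lay close behind that of CDH6.

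Normal organs were not uniformly low. NRG1 had log2 values of 6.02 and 5.40 in the kidney samples, 4.76 and 6.17 in the liver samples and 4.31 and 3.995 in the lymph node samples. Kidney and liver replicates overlapped with each other, and both lymph node samples lay within the range of the tumors. The liver samples differed by 1.41, the largest replicate difference seen for NRG1. Both cell lines lay above all 6 normal samples, as they did in 14.3% of probe sets. The lower line exceeded the higher kidney sample by 0.82, the higher liver sample by 0.67 and the higher lymph node sample by 2.53. In means, the lines exceeded kidney by 1.25, liver by 1.49 and lymph node by 2.81.

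CDH6 came nearest to the cell lines in kidney, where kidney 2 lay between the lines and kidney 1 below both. Probe set 1587153_at had log2 values of 5.94 and 6.79 in kidney, 5.38 and 6.02 in liver and 3.62 and 3.77 in lymph node. Kidney 2 lay above cell line 1 by 0.04, so the lines overlapped with this kidney sample. Both lines lay above liver by at least 0.74 and above lymph node by at least 2.99. The mean line value exceeded that of kidney by 0.55, of liver by 1.21 and of lymph node by 3.22. Probe set 1598309_at had values of 3.77 and 4.84 in kidney, 3.41 and 3.75 in liver and 3.23 and 3.27 in lymph node. Kidney 2 was above cell line 1 again, by 0.25, and the means ran from the cell lines through kidney and liver to lymph node, as for 1587153_at. In every organ replicate 2, the array with full 5′ signal, had the higher value for both CDH6 probe sets, whereas for NRG1 replicate 2 was the higher only in liver.

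Among the 3 organs, limma's F-test over the 6 normal samples called none of the 3 probe sets at an adjusted p of 0.01, against 3.09% of all probe sets, and 1 of the 3 had an unadjusted p under 0.05. That was CDH6 1587153_at, with organ means of 6.36 in kidney, 5.70 in liver and 3.70 in lymph node (limma adjusted p = 0.0277). With the replicate number as a block, which is also the 5′ signal class of the array, it was called (limma adjusted p = 0.00656). NRG1 had means of 5.71, 5.47 and 4.15 in the same order (limma adjusted p = 0.245). The F-test covers the 3 organs together, and kidney was not tested against liver. CDH6 1598309_at had a limma adjusted p of 0.329.

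The difference between tumors and normal organs was not the contrast behind the choice of the genes and was tested. The tumor values that enter these tests, also those of each organ, are however those used in the choice, which favoured genes with low tumors, so the p-values and counts are not independent of it. NRG1 was lower in the tumors than in the 6 normal samples as 1 group, by a log2 difference of -0.98 ± 0.24 (SE, 95% interval from -1.47 to -0.49, limma adjusted p = 0.00808). CDH6 1587153_at had a larger difference of -1.31 ± 0.33 (SE) that missed the threshold (limma adjusted p = 0.0109), and 1598309_at had -0.40 ± 0.15 (SE, limma adjusted p = 0.0894). Thus 1 of the 3 probe sets was called lower, against 2.93% of all probe sets. The NRG1 call was lost in 17 of the 21 fits that left out 1 sample and ranged from an adjusted p of 0.000679 to 0.0309, with a difference between -1.21 and -0.77. It was also lost with the organ as a random block (limma adjusted p = 0.0209). CDH6 1587153_at passed the threshold without lymph node 1, without lymph node 2 or without tumor 7. The organs were far apart, and the pooled difference joins the kidney and liver values with lymph node values that lay with the tumors.

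Kidney gave the widest gap. All 15 tumors lay below both kidney samples in each of the 3 probe sets, as in 6.62% of all probe sets. The tumor minus kidney difference was -1.58 ± 0.25 for NRG1 (SE, limma adjusted p = 0.000103) and -2.42 ± 0.24 for CDH6 1587153_at (limma adjusted p = 1.66e-07). For CDH6 1598309_at it was -0.99 ± 0.19 (limma adjusted p = 0.000830). All 3 probe sets were called lower in the tumors, against 5.26% of all probe sets. An exact permutation test of each probe set, two-sided, gave p = 0.00735, the smallest that 15 tumors against 2 samples allow, and 0.0126 after adjustment over the 12 tests of this kind. NRG1 lost its call without kidney 1 (difference -1.27, limma adjusted p = 0.0209), and CDH6 1598309_at without kidney 2 (difference -0.45, limma adjusted p = 0.175).

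Liver followed for NRG1 and the brighter CDH6 probe set. All 15 tumors lay below both liver samples in these probe sets, as in 7.73% of all probe sets, and 12 of 15 did so for CDH6 1598309_at. The tumor minus liver difference was -1.34 ± 0.25 for NRG1 (SE, limma adjusted p = 0.000514) and -1.76 ± 0.24 for CDH6 1587153_at (limma adjusted p = 1.12e-05), so 2 of the 3 probe sets were called lower, against 5.86% of all probe sets. CDH6 1598309_at had -0.27 ± 0.19 (limma adjusted p = 0.426). The NRG1 call rested on liver 2, without which the difference was -0.64 (limma adjusted p = 0.157). These contrasts share an estimate of the spread that comes mostly from the tumors, whereas samples of the same organ differed by up to 1.41.

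Lymph node was at the level of the tumors. The tumor minus lymph node difference was -0.03 for NRG1, with a 95% interval from -0.54 to 0.49 (limma adjusted p = 0.988). It was 0.24 for CDH6 1587153_at, with an interval from -0.25 to 0.73 (limma adjusted p = 0.757), and 0.07 for CDH6 1598309_at, with an interval from -0.32 to 0.45 (limma adjusted p = 0.951). No probe set was called by limma, against 4.24% of all probe sets in either direction, and 0 of 3 had an unadjusted p under 0.05. The exact permutation p-values were 0.853, 0.235 and 0.368 (two-sided). The intervals leave room for tumor minus lymph node differences of up to 0.73 in CDH6 and of -0.54 in NRG1.

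Within the tumors, the genes were compared between arrays of low and full 5′ signal. The low minus full difference was -0.20 ± 0.11 for NRG1 (SE, limma adjusted p = 0.338), 0.07 ± 0.15 for CDH6 1587153_at (limma adjusted p = 0.827) and 0.03 ± 0.06 for CDH6 1598309_at (limma adjusted p = 0.817). Limma called 0 of 3, with 0 of 3 at an unadjusted p under 0.05, against 3.18% of all probe sets called. Without tumor 7 the sign for CDH6 1587153_at turned, to -0.05.

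Across the 23 samples NRG1 and CDH6 1587153_at had a Pearson r of 0.914, NRG1 and CDH6 1598309_at 0.828, and the CDH6 probe sets 0.896 with each other. The samples fall into separate groups, so these values describe the order of the groups. For NRG1 and CDH6 1587153_at the tumors and lymph node form a cloud at the low end and kidney and liver lie above it. For CDH6 1598309_at liver 1, at 3.41, lay within the tumor range, and in both CDH6 probe sets kidney 2 lay above cell line 1. Over the 6 normal samples alone the same pairs had r of 0.828, 0.521 and 0.832.

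Over the 15 tumors alone the values were lower. NRG1 and CDH6 1587153_at had r = 0.22 (permutation p = 0.431, adjusted over 3 relations 0.647) and Spearman's rho = 0.214 (permutation p = 0.441, adjusted 0.662). Without the 2 tumors farthest from the NRG1 median r was 0.161, and it was 0.604 within the 8 tumors of full 5′ signal and 0.087 within the 7 of low 5′ signal. NRG1 and CDH6 1598309_at had r = 0.0975 (permutation p = 0.731, adjusted 0.731) and rho = 0.075 (permutation p = 0.791, adjusted 0.791), with r = 0.0798 without the 2 farthest tumors, -0.04 in the full and 0.416 in the low 5′ tumors. The CDH6 probe sets had an r of 0.566 with each other (permutation p = 0.0267, adjusted 0.0801) and a rho of 0.307 (permutation p = 0.267, adjusted 0.662). This relation rested on a pair of tumors, as r fell to 0.0265 without the 2 tumors farthest from the median, and it was 0.298 in the full and 0.815 in the low 5′ tumors.

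**Figure D2:**
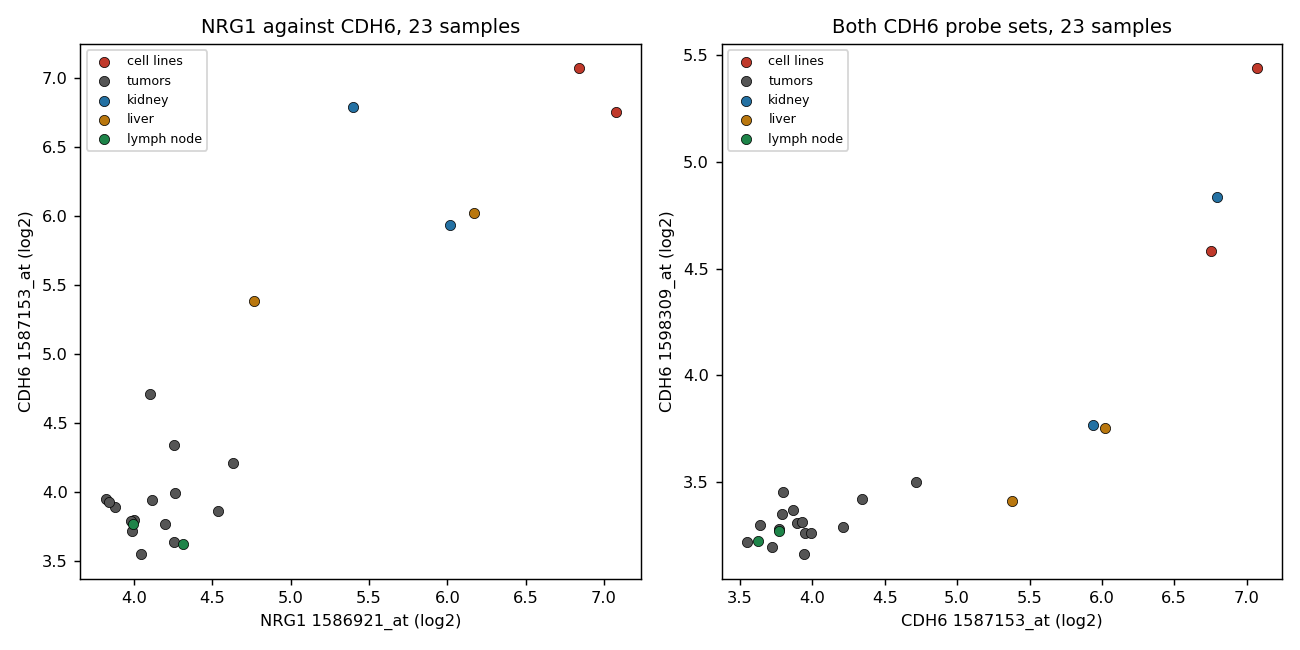
Log2 values of CDH6 1587153_at against NRG1 and of CDH6 1598309_at against CDH6 1587153_at, with each point 1 of 23 samples, marked by group. The groups give r of 0.914 and 0.896 over all samples, while within the cloud of 15 tumors r is 0.22 and 0.566.

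The genes most like NRG1 over the 23 samples by Pearson r were CDH6 (0.914), GSR (0.839), CFAP206 (0.831), C9H9orf116 (0.788) and ARHGEF5 (0.784). Those most like CDH6 were NRG1 (0.914), GSR (0.888), ARHGEF5 (0.874), TOM1L1 (0.864) and SCCPDH (0.855). Each of the pair headed the other's order among 6540 genes, and GSR and ARHGEF5 stood in both. NRG1 and CDH6 were chosen for their excess in the lines over the tumors, so a high r between them over these samples follows in part from the choice. Over the 15 tumors alone both orders changed. NRG1 was then most like DRAM1 (0.851), LOC448801 (0.821), EFCAB9 (0.816), PDE4B (0.815) and FGF7 (0.805), with CDH6 at rank 1424. CDH6 was most like PENK (0.874), DYRK1A (0.834), HTR7 (0.833), EDN1 (0.786) and CDS1 (0.783), with NRG1 at rank 1528. These orders are descriptions, and all 23 points share the group differences described above.

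A total of 60 genes, 0.917% of 6540, had both lines above every tumor by at least 1 log2 unit. Of these, 8 also had every tumor below both kidney samples, namely NRG1, CDH6, EPCAM, GSR, PLA2G12A, TOM1L1, TUBA4A and ZNF133. Of all genes, 9.17% had every tumor below both kidney samples. Of the 60, 5 had every tumor below both kidney and both liver samples, as had 4.69% of all genes. These were NRG1, CDH6, EPCAM, PLA2G12A and TOM1L1. They are 5 of the 8 below kidney, where 307 of the 600 genes of the whole array below kidney were also below liver. No excess over these shares was tested. EPCAM, an epithelial adhesion molecule singled out after its values were seen, was at 5.03 and 7.03 in the cell lines. Its tumor values ran from 3.03 to 3.99, and it was at 10.96 and 11.03 in kidney, 8.50 and 9.32 in liver and 3.63 and 3.80 in lymph node. Unlike NRG1 and CDH6, EPCAM was far higher in kidney and liver than in either line.

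The genes that flank NRG1 and CDH6 were examined in the order of the reference annotation (assembly UU_Cfam_GSD_1.0, used for gene order only). Of the 10 measured genes nearest to NRG1, 5 on each side, 2 were called higher in the cell lines and 0 lower, against 5.84% and 2.92% of all genes. At an unadjusted p under 0.05 (limma), 4 of the 10 were higher and 0 lower, against 1481 and 793 of all 6540 genes. GSR, the third measured gene on the side after NRG1, had log2 values of 7.71 and 8.81 in the lines and 4.40 to 5.92 in the tumors, with a difference of 3.06 (limma adjusted p = 2.44e-05). FUT10, a fucosyltransferase gene and the nearest on the other side, differed by 0.85 (limma adjusted p = 0.000508). PPP2CB, a phosphatase catalytic subunit, and UBXN8 lie between NRG1 and GSR among the measured genes and differed by 0.42 and 0.47 (limma adjusted p = 0.357 and 0.247). The 10 differences ran from -0.07 to 3.06 with a median of 0.62, against a median of 0.10 over all genes. Both lines lay above every tumor for 3 of the 10, FUT10, GSR and the dynactin subunit DCTN6, as in 11.3% of all genes.

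Of the 9 measured genes nearest to CDH6, limma called 0 higher and 0 lower, against 5.84% and 2.92% of all genes. At an unadjusted p under 0.05, 2 of the 9 were higher and 2 lower, against 1481 and 793 of all 6540 genes. The differences of the 9 genes ran from -1.05 for PDZD2 to 0.99 for DROSHA, the microRNA-processing nuclease and the nearest measured gene before CDH6 (limma adjusted p = 0.120). The median was 0.26. Both lines lay above every tumor for 1 of the 9, ZNF622, as in 11.3% of all genes. CDH18, another type II cadherin and the nearest measured gene after CDH6, had a difference of -0.27 (limma adjusted p = 0.575).

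**Figure D3:**
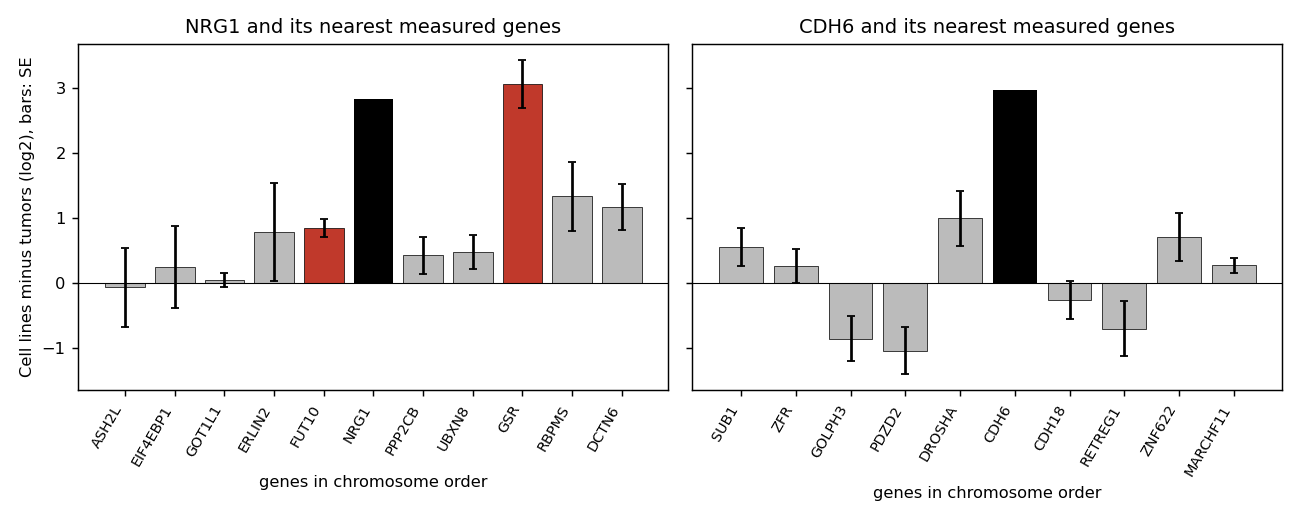
Cell line minus tumor difference on the log2 scale, with SE for the neighbours, for the nearest measured genes on each side of NRG1 and of CDH6 in the gene order of the reference assembly. Red bars passed an adjusted p of 0.01 and the black bar is NRG1 or CDH6 itself, and around NRG1 these were FUT10 at 0.85 and GSR at 3.06.

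The partners of both genes were taken from 10 lists with 143 genes, 49 of them measured by name. Of the 49, 0 rose and 6 fell in the cell lines against the tumors (limma), against 5.84% and 2.92% of all genes. At an unadjusted p under 0.05 the numbers were 5 and 10 of the 49, against 1481 and 793 of all 6540 genes. The median difference of the 49 was -0.18, beside 0.10 over all genes. At an adjusted p of 0.05, 3 of the 49 rose, namely HRAS, PARD3 and TGFB2, by 1.33, 1.32 and 1.66 (limma). The other PARD3 probe sets had differences of -0.63 and 0.21. With cell line 1 left out, and likewise with cell line 2 left out, 1 gene was called lower in place of 6.

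No other ligand and no receptor of the ErbB family was called in the cell lines by limma, and 1, ERBB2, had an unadjusted p under 0.05. Of the 10 listed ligands, 2 were measured. The neuregulin NRG3 differed by 0.05 ± 0.13 and EGF by -0.18 ± 0.42 (SE, limma adjusted p = 0.840 and 0.819). EGFR, which binds EGF and not NRG1, was at 7.40 in cell line 1, at 5.20 in cell line 2 and at 4.64 to 8.85 in the tumors with a median of 7.20. The lines lay inside the tumor range, with a difference of -0.59 ± 0.92 (SE, limma adjusted p = 0.712) that was 0.51 with cell line 1 alone and -1.69 with cell line 2 alone. ERBB2, the partner without a ligand of its own, was at 4.81 and 5.18 in the lines and at 4.14 to 5.10 in the tumors, a difference of 0.44 ± 0.19 (SE, limma adjusted p = 0.118). ERBB4, an NRG1 receptor, was at 3.54 and 3.81 in the lines and at 3.72 to 4.20 in the tumors, a difference of -0.18 ± 0.10 (SE, limma adjusted p = 0.248). NRG3, ERBB2 and ERBB4 were near the low end of the scale in every group. ERBB3 was not measured by name. The 4 measured genes of ligand shedding, ADAM9, ADAM10, BACE1 and RHBDF1, were not called either (limma).

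Genes downstream of the receptors that passed the test were all lower in the cell lines. Of 11 measured signal carriers 2 fell and 0 rose, where 2.92% of all genes fell and 5.84% rose. At an unadjusted p under 0.05, 2 of the 11 fell and 2 rose, among the latter HRAS (difference 1.33 ± 0.39 SE, limma adjusted p = 0.0247). PIK3R1, the regulatory subunit of PI3-kinase, was at 5.91 and 6.82 in the lines and at 7.62 to 10.6 in the tumors (difference -2.76 ± 0.52 SE, limma adjusted p = 0.00167), but its other probe sets had differences of -0.12 and -0.76. STAT3, a transcription factor, fell by 1.54 (limma adjusted p = 0.00930), a call that was lost in 19 of the 23 fits that left out 1 sample. Of 5 negative regulators 1 fell at the adjusted threshold, and 2 fell and 0 rose at an unadjusted p under 0.05. At this unadjusted level 793 of all 6540 genes fell and 1481 rose. DUSP6 was among the 2 (difference -2.02 ± 0.59 SE, limma adjusted p = 0.0249). The called gene was CBLB, a ubiquitin ligase that acts on receptors. It was at 4.24 and 4.28 in the lines and at 6.08 to 8.28 in the tumors (difference -2.86 ± 0.43 SE, limma adjusted p = 0.000190), and its call held in every fit that left out 1 sample. Of 2 measured ERK response genes 1 fell at the adjusted threshold and 2 at an unadjusted p under 0.05. The former, FOS, an immediate response gene of the ERK route, was at 4.40 and 5.14 in the lines and at 7.98 to 12.3 in the tumors (difference -4.95 ± 0.89 SE, limma adjusted p = 0.00106).

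No measured cadherin other than CDH6 was called in the cell lines by limma, and 1, CDH2, had an unadjusted p under 0.05. Of 17 listed classical cadherins 3 were measured. CDH1 (E-cadherin) differed by -0.18, CDH2 (N-cadherin) by -0.38 and CDH18 by -0.27 (limma adjusted p = 0.410, 0.160 and 0.575). These 3 were near the low end of the scale in every group, with group means of at most 4.36, 4.89 and 4.20. Differences of such dim probe sets are compressed, so a change in these cadherins could be missed. CDH1 was at 4.02 and 4.41 in kidney, no higher than in the tumors, and its other probe set differed by 0.19 between lines and tumors. CDH16, a cadherin of kidney epithelium, was at 9.13 and 9.64 in kidney and at 4.76 and 4.83 in the cell lines, within the 4.64 to 5.52 of the tumors. The lines thus had a tumor-like value of CDH16. For CDH6 1587153_at kidney 2, at 6.79, lay between the lines, and kidney 1, at 5.94, lay below both. The desmosomal DSC2, DSG1 and DSG3 were not called (limma).

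Of 9 measured catenins and junction partners 1 fell and 0 rose (limma), where 2.92% of all genes fell and 5.84% rose. At an unadjusted p under 0.05, 2 of the 9 fell and 1 rose, against 793 and 1481 of all 6540 genes. The called gene, CTNNB1 (beta-catenin), was at 10.7 and 10.9 in the lines and at 11.07 to 11.97 in the tumors (difference -0.83 ± 0.18 SE, limma adjusted p = 0.00457). Its other probe sets had differences of -1.66 and -0.13. Of 6 factors of mesenchymal transition 1 fell and 0 rose, TCF4 by 1.09 (limma adjusted p = 0.00427). At an unadjusted p under 0.05, 1 of the 6 fell and 1 rose (limma). PIK3R1, FOS, CTNNB1 and TCF4 lost their calls when either cell line was left out, with limma adjusted p up to 0.0668, 0.0354, 0.0956 and 0.0848, in fits that kept 1 cell line. The differences without cell line 1 and without cell line 2 were -3.22 and -2.30 for PIK3R1, -4.58 and -5.31 for FOS, -0.73 and -0.92 for CTNNB1 and -1.19 and -0.99 for TCF4.

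**Figure D4:**
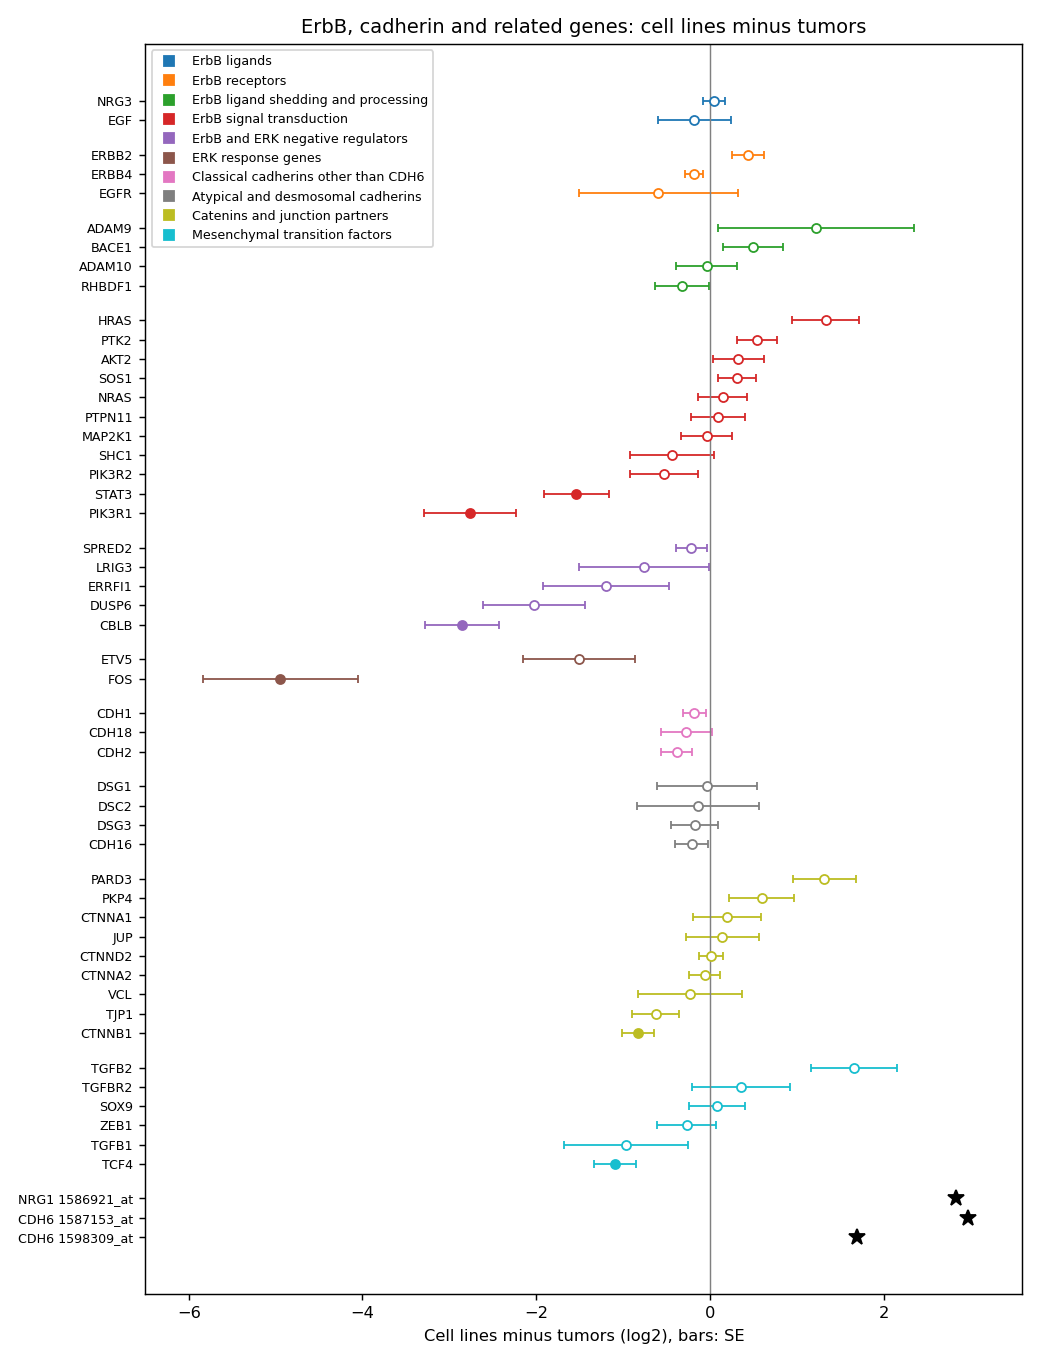
Cell line minus tumor difference on the log2 scale, with SE, of the 49 measured genes of 10 pathway lists. Filled points passed an adjusted p of 0.01 (0 higher, 6 lower), and stars mark the NRG1 and CDH6 probe sets at 2.83, 2.97 and 1.70.

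Markers of other cells moved with the cell line versus tumor contrast. The summed log2 level of 9 macrophage and myeloid genes was 44.6 to 46.1 in the cell lines and 62.0 to 77.7 in the tumors, and 5 of the 9 fell (limma), where 2.92% of all genes fell and 5.84% rose. For 7 endothelial genes the sums were 35.8 to 35.9 and 42.9 to 54.1, and 3 fell. For 5 lymphocyte genes they were 27.0 to 27.3 and 26.9 to 31.0, and 0 fell at the adjusted threshold and 1 at an unadjusted p under 0.05. For 4 osteoclast genes they were 20.7 to 23.8 and 25.6 to 42.0, and 1 fell at the adjusted threshold and 4 at an unadjusted p under 0.05, with a median difference of -3.03. At this unadjusted level 793 of all 6540 genes fell and 1481 rose. Of 6 proliferation genes 1 rose at the adjusted threshold and 5 at an unadjusted p under 0.05. The former was AURKA, a mitotic kinase, with a difference of 2.95. The sums of the 6 genes were 53.6 to 53.7 in the lines and 37.2 to 52.5 in the tumors. No marker is at 0 on this scale. The markers' part in the NRG1 and CDH6 values was not tested. NRG1 and CDH6 were higher in the lines, where the myeloid, endothelial and osteoclast sums were lower. Of the Schwann cell and nerve genes, S100B and PMP22 were measured and were not called, with differences between 0.00 and 0.37 (limma).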

How the data were processed

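The authors processed the arrays (Affymetrix Canine Genome) by RMA, which the submitters' processing notes name with affy. The deposited values are log2 expression values after background correction and quantile normalization, from 2.52 to 14.2. The versions of this software are not given in the sources used here. RMA compresses differences of dim probe sets. Precision is limited by the number of arrays.

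After 77 control probe sets were left out, 23836 probe sets were fitted without a filter. Genes were named from probe sets with 1 symbol in the platform annotation and represented by the probe set with the highest mean. Limma 3.58.1 under R 4.3.3 gave two-sided tests with Benjamini-Hochberg adjustment over all probe sets and a threshold of 0.01 from the study. Cell line and single-organ contrasts came from 1 fit of 5 groups, tumors versus normal from a fit of 15 tumors and 6 normal samples. Exact permutation tests and the permutation p-values of the tumor correlations (100000 resamples) were coded in Python 3.11.15. The correlation coefficients and the adjustment of these p-values came from scipy 1.17.1. Arrays were split by 5′ signal at an index of 1.5. NRG1 and CDH6, the listed ErbB, cadherin and catenin genes, the called genes of other lists, the 5 most like genes and the 5 largest margins were to be named. The chromosomal neighbours, the genes that share the pattern of NRG1 and CDH6 (EPCAM among them), COL1A1, S100B, PMP22, HRAS, DUSP6, PARD3 and TGFB2 were named outside this rule, after their values were seen. The genes and lists were chosen with earlier results of these data known. Alternatives were other fits, centring, filters, thresholds, subsets of arrays and omission of each sample.

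The study describes the normal tissues as biological replicates, but the labels do not tie samples to animals, and the p-values cover the spread among these samples. The deviations of same-numbered organ samples correlated at 0.607, 0.596 and 0.530 over 23836 probe sets, and the numbers in the labels were used as a block in an alternative fit. Replicate 1 of each organ was also the low 5′ array, so these correlations cannot tell a shared animal from shared 5′ signal.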

Additional observations from a re-analysis of the deposited data

Results flagged for a closer look

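For CDH6 probe set 1598309_at, 1 of the 6 normal samples lay far from the others. Kidney 2 was at a log2 value of 4.84, the next sample, kidney 1, at 3.77 and the lowest, lymph node 1, at 3.23. The gap from kidney 2 to the next sample was 0.664 of the whole range, above Dixon's critical value for 6 samples. The 6 samples come from 3 organs, and for NRG1 and CDH6 1587153_at the same ratio was 0.145 and 0.244. Chance alone flags some groups at this level.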

How the results depend on the processing

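The tumor versus kidney, tumor versus liver and cell line versus tumor differences of NRG1 and CDH6 kept their sign under every alternative that gave a value. All 15 tumors lay below both kidney samples and both cell lines in all 3 probe sets. They lay below both liver samples for NRG1 and CDH6 1587153_at. In these comparisons leaving out samples could not turn the sign, so the kept sign there is no check. The dim filter left 0 of the 3 probe sets and gave no value for them.

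For NRG1 in tumors versus normal organs, the difference lost its call with the 5′ index as a covariate (-1.02, limma adjusted p = 0.0107), with the organ as a random block (-0.98, 0.0209), and in full (-0.97, 0.142) or low (-1.01, 0.102) 5′ arrays alone. CDH6 1587153_at passed with a trended, robust prior (-1.31, 0.00971) and at a threshold of 0.05 (-1.31). Without 1 sample in turn, NRG1 ranged from -1.21 to -0.77, CDH6 1587153_at from -1.64 to -1.01 and 1598309_at from -0.49 to -0.17.

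Against single organs, omission of 1 sample gave -1.89 to -1.27 for NRG1 and -1.52 to -0.45 for CDH6 1598309_at in kidney, -2.05 to -0.64 for NRG1 in liver and -0.19 to 0.13 for NRG1 in lymph node. In low 5′ arrays alone, chosen after seeing the data, calls were lost for CDH6 1598309_at in kidney (-0.44, 0.124) and for NRG1 (-0.74, 0.142) and CDH6 1587153_at (-1.40, 0.0362) in liver. In full 5′ arrays alone NRG1 minus lymph node was 0.22.

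Among organs, the replicate block gave a range of 2.67 and a call for CDH6 1587153_at (limma adjusted p = 0.00656) and changed no other call. This block joins same-numbered samples and is also a block of 5′ signal class. Between 5′ classes, CDH6 1587153_at ranged from -0.0492 to 0.14 without 1 tumor.

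For the cell lines against tumors, CDH6 1598309_at was 1.81 after centring and 1.27 to 2.13 without 1 sample, with margins of 1.08 to 1.94. The CDH6 1587153_at margin was 2.41 over full 5′ tumors and 2.04 to 2.41 without 1 sample. Pathway genes called higher were 3 at a threshold of 0.05, and without 1 sample 0 to 1 were higher and 1 to 6 lower. CDH1 as a mean of its probe sets differed by 0.00618. Without 1 sample EGF ranged from -0.36 to 0.00524, EGFR from -1.69 to 0.51 and NRG3 from -0.16 to 0.26. The cause was not tested where calls changed.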
